A study of Mus musculus with 36 samples.

Results

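This section describes 8 genes of the extracellular protease system that links plasminogen activation to thrombin signalling, read out of a table of 52636 genes. They were chosen by name and found through their Ensembl identifiers: the plasminogen activators Plat and Plau, the activator receptor Plaur and the plasmin-system scaffold Anxa2, the serpins Serpine2 and Serpinf1, and the protease-activated receptors F2r and F2rl1. All 8 passed the filter on low counts, which 15330 genes passed. The libraries came from S100β-GFP;NG2-dsRed mice, in which the S100b promoter drives GFP and the Cspg4 (NG2) promoter drives dsRed, so each sorted population is defined by promoter use and every cell, in all 3 populations, came from a mouse carrying both transgenes. Cells of diaphragm, pectoralis, forelimb and hindlimb muscles were sorted by fluorescence into S100β-GFP+;NG2-dsRed+ perisynaptic Schwann cells (PSCs, 9 libraries), S100β-GFP+ cells, which include the other Schwann cells (8 libraries), and NG2-dsRed+ cells, which include pericytes (10 libraries). Each library was made from the cells of a single mouse. The study's methods give the age of these mice as postnatal days 15 to 21. The age range in the labels starts at 15 days for all libraries. Its upper end rises day by day from one sample to the next, whatever the population, from 21 to 46 days, and then stays there. Age was used in no test. Whether libraries of different populations came from the same mouse is not stated. The question put to the table was how the genes of this protease system differ between the glia of the neuromuscular junction and the other 2 populations.

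Plasmin is made from plasminogen by tissue-type plasminogen activator (tPA, from Plat) or urokinase (uPA, from Plau). Urokinase is held at the cell surface by its receptor uPAR (Plaur), while annexin A2 (Anxa2), together with its partner S100A10, gathers plasminogen and tPA on the membrane. Protease nexin-1 (Serpine2) is a serpin that inhibits thrombin, urokinase, tPA and plasmin. Pigment epithelium-derived factor (PEDF, from Serpinf1) has the serpin fold but is not an inhibitor and is known as a secreted neurotrophic and anti-angiogenic factor. Thrombin signals by cutting its receptor PAR1 (F2r), and trypsin-like proteases cut PAR2 (F2rl1). At the developing neuromuscular junction, thrombin and its serpin inhibitors have been studied for a part in the removal of surplus nerve terminals.

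In PSCs the genes for both activators were lower, and that for their inhibitor protease nexin-1 was higher, than in either other population. Plat, Plau, Plaur, Anxa2 and Serpinf1 were lower in PSCs than in S100β-GFP+ cells, Serpine2 was higher, and F2r and F2rl1 did not pass the test. Levels are counts per 1000000 (CPM) after TMM normalization, and differences are log2 fold changes from edgeR's quasi-likelihood test across all 15330 genes, called at a Benjamini-Hochberg adjusted p under 0.05. Against S100β-GFP+ cells 5 of the 8 genes were called lower, where 24.1% of all genes tested were, and 1 was called higher, where 22.9% were (47.0% in either direction). Against NG2-dsRed+ cells 6 were called lower (23.1% of all genes) and 1 higher (20.9%, and 44.0% in either direction). The median log2 difference of the 8 genes was -3.08 in the first of these comparisons and -2.09 in the second, where the medians of all genes tested were 0.04 and 0.02. Both comparisons use the same PSC libraries. Plau and F2rl1 passed the filter through the other populations, with 1 PSC library each over its minimum, and F2rl1 through NG2-dsRed+ cells, so that part of these counts follows from the filter. Of the other 6 genes 4 were lower and 1 higher in each comparison, with medians of -3.08 and -1.26.

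**Figure D1:**
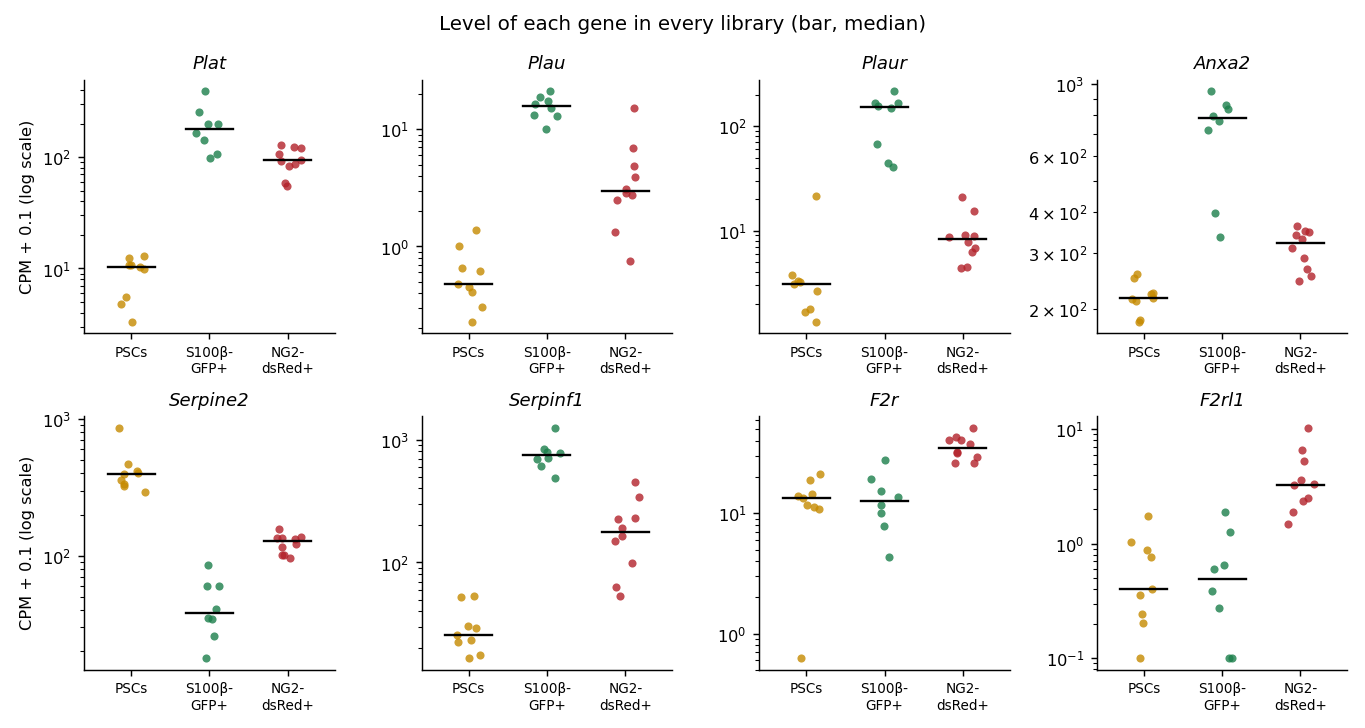
Each point is the level of a gene in 1 library, as CPM + 0.1 on a log axis, for PSCs (9 libraries), S100β-GFP+ cells (8) and NG2-dsRed+ cells (10), and bars are medians. Plat, Plau, Plaur, Anxa2 and Serpinf1 had their lowest median in PSCs, and Serpine2 in every PSC library lay above every other library.

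Libraries that stand apart touch several of these values. PSC library 18 had a count on 14616 genes, where the other PSC libraries had at least 20203, and 2500 of the tested genes were at 0 in it. It held the highest Plat, Plaur, Serpine2 and Serpinf1 and the lowest F2r and F2rl1 of its group. Among S100β-GFP+ cells, libraries 14, 17 and 22 had summed levels of 6 macrophage and leukocyte markers of 1073 to 3516 CPM, where the other 5 libraries had 5103 to 10301 CPM. Library 22 had a count on 38568 genes. The series text states 7 S100β-GFP+ replicates, while the table has columns for 8, and the sources used here do not say which one was set aside. Total counts on genes were between 5221655 and 9592875 per library.

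The sorted populations also differed in markers of other cells. The marker Sox10 of the Schwann cell lineage averaged 504 ± 103 CPM in PSCs (SD, n = 9), 20.1 ± 12.0 CPM in S100β-GFP+ cells (n = 8) and 4.43 ± 2.43 CPM in NG2-dsRed+ cells (n = 10). Summed over 7 fibroblast markers the level was 10893 to 24027 CPM in S100β-GFP+ libraries, 1345 to 12389.6 CPM in NG2-dsRed+ libraries and 446 to 1773 CPM in PSC libraries. The 6 macrophage and leukocyte markers summed to 34.1 to 568 CPM in PSCs and 12.8 to 67.3 CPM in NG2-dsRed+ cells. All 7 fibroblast markers and all 6 macrophage markers were called lower in PSCs when set against S100β-GFP+ cells. None of them was at 0 over a group. Of 8 pericyte and smooth muscle markers, 7 were called lower in PSCs than in NG2-dsRed+ cells, with sums of 777 to 1452 CPM against 6914 to 14833 CPM. All 7 endothelial markers were called lower in PSCs than in NG2-dsRed+ cells, with sums of 88.1 to 601 CPM against 1288 to 3203 CPM. Against S100β-GFP+ cells, with endothelial sums of 37.8 to 2387 CPM, 1 of these 7 was called lower. The part of these other cells in the differences below was not tested, and in bulk libraries fewer cells of a type cannot be told apart from less RNA per cell. Of the genes whose promoters drive the reporters, Cspg4 averaged 686 CPM in PSCs, 70.5 CPM in S100β-GFP+ cells and 663 CPM in NG2-dsRed+ cells, and S100b 254, 29.2 and 6.51 CPM.

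The promoters of 4 genes are shown because Serpine2 was the only one of the 8 genes called higher in PSCs and the other 3 were called lower than in S100β-GFP+ cells. RefSeq's table of promoters (GRCm38.p6) held 5 of the 8 genes, Serpine2, Plaur, Anxa2, Serpinf1 and F2r. Each line gives the 250 bases before the RefSeq start on the gene's strand, 5′ to 3′. Capitals mark every match, on either strand, to TGANTCA (AP-1), GGGCGG (GC box), TATAAA (Goldberg-Hogness box), ACAAAG (SOX) and to its variant ACAATG (SOX).
Serpine2: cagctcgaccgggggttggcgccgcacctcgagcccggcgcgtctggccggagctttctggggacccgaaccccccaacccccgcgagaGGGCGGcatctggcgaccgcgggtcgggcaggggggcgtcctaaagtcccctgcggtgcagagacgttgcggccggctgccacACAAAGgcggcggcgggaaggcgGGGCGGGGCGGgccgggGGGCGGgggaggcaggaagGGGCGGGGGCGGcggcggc
Plaur: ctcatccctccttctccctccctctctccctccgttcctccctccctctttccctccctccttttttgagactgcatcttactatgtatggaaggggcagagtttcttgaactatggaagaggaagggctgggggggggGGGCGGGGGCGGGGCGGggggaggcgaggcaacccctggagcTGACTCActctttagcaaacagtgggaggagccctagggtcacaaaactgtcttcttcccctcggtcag
Anxa2: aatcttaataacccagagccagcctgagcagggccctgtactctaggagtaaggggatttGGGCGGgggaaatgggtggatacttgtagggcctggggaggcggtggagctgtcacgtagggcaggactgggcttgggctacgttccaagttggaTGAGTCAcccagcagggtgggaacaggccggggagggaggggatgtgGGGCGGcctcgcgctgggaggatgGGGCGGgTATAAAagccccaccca
Serpinf1: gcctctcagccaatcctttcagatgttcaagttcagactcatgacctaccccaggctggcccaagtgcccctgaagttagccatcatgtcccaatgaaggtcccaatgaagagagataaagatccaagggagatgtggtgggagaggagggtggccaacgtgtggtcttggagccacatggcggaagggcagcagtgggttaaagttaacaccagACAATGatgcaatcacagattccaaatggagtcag
The stretches are chr1:79858666-79858915 on the minus strand, chr7:24462233-24462482 on the plus strand, chr9:69453433-69453682 on the plus strand and chr11:75422624-75422873 on the minus strand. The Serpine2 stretch is 78.8% G and C and has 6 matches to GGGCGG, some of them overlapping or adjoining, and 1 to ACAAAG. The Serpinf1 stretch is 51.6% G and C, holds none to GGGCGG and has 1 match to ACAATG. Plaur and Anxa2 each had 1 match to TGANTCA and 3 to GGGCGG, and Anxa2 also had TATAAA 17 bases before the start. The RefSeq starts of Anxa2 (69453683) and Serpinf1 (75422623), like that of Serpine2, lie inside the genes as GENCODE draws them. The whole Serpine2 stretch lies inside its gene, with all its matches. The TATAAA of Anxa2, its GGGCGG matches 48 and 24 bases before the start, and the ACAATG of Serpinf1 lie inside the genes too. Of all 32851 promoter stretches of this length, 6.75% held TGANTCA, 32.7% GGGCGG, 12.4% TATAAA, 16.5% ACAAAG and 10.7% ACAATG, and the median G and C content was 52.4%. These are matches of letters and not measured binding sites.

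Plat, the gene for tPA (chromosome 8, 22757727 to 22782844, plus strand, GRCm38), was lower in all PSC libraries than in any library of the other populations. Its level in PSC libraries was 3.24 CPM at the lowest, 10.3 CPM at the median and 12.9 CPM at the highest. In S100β-GFP+ libraries these values were 97.2, 180.4 and 389.9 CPM. In NG2-dsRed+ libraries they were 54.7, 93.3 and 129 CPM. No PSC library reached the lowest library of either other population, and S100β-GFP+ and NG2-dsRed+ libraries overlapped. The log2 difference of PSCs was -4.45 ± 0.30 (SE) from S100β-GFP+ cells (adjusted p = 7.12e-13, edgeR) and -3.42 ± 0.28 from NG2-dsRed+ cells (adjusted p = 4.29e-11, edgeR). That is 21.9-fold and 10.7-fold lower. S100β-GFP+ cells were higher than NG2-dsRed+ cells by 1.03 ± 0.26 (adjusted p = 0.00219, edgeR).

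Plau, the gene for urokinase (chromosome 14, 20836660 to 20843385, plus strand), was close to the limit of detection in PSCs. Between 1 and 9 counts fell on it in each PSC library, 41 in all 9, and its level ran from 0.129 to 1.28 CPM with a median of 0.381 CPM. S100β-GFP+ libraries had 9.91 CPM at the lowest, 15.7 CPM at the median and 21.0 CPM at the highest. NG2-dsRed+ libraries were the most variable, from 0.647 CPM over a median of 2.88 CPM to 15.1 CPM in library 35, and overlapped both other populations. Plau was 29.1-fold lower in PSCs than in S100β-GFP+ cells (log2 difference -4.87 ± 0.49, adjusted p = 1.63e-09, edgeR). It was 8.11-fold lower than in NG2-dsRed+ cells (-3.02 ± 0.46, adjusted p = 3.29e-06, edgeR). S100β-GFP+ cells exceeded NG2-dsRed+ cells by 1.85 ± 0.40 (adjusted p = 0.000571, edgeR). Before TMM, only 1 PSC library was over the minimum of 1.44 CPM that the filter asked for in at least 8 libraries, so Plau passed the filter through the other populations, where it is high.

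Plaur, the gene for the urokinase receptor (chromosome 7, 24462484 to 24475968, plus strand), was a gene of the S100β-GFP+ libraries. It reached 40.3 CPM at the lowest, 153 CPM at the median and 217 CPM at the highest there. PSC libraries had 1.25, 3.01 and 21.5 CPM, and NG2-dsRed+ libraries 4.30, 8.13 and 20.8 CPM. S100β-GFP+ libraries did not overlap either other population, while PSC and NG2-dsRed+ libraries did. PSCs were 28.2-fold lower than S100β-GFP+ cells (log2 difference -4.82 ± 0.52, adjusted p = 5.7e-09, edgeR), and S100β-GFP+ cells were 13.7-fold higher than NG2-dsRed+ cells (3.78 ± 0.47, adjusted p = 1.72e-07, edgeR). The first of these rests in size on PSC library 18, without which it was 48.3-fold (-5.59), and without S100β-GFP+ libraries 14, 17 and 22 as well it was 64.9-fold (-6.02). Between PSCs and NG2-dsRed+ cells the difference of -1.04 (95% confidence interval -1.97 to -0.11) did not pass the test (adjusted p = 0.0644, edgeR). Of the fits that left out 1 library, only that without PSC library 18 changed this call. With library 18 kept, the difference passed with limma-voom (adjusted p = 0.00828). It also passed without S100β-GFP+ libraries 14, 17 and 22 (adjusted p = 0.0391, edgeR). The Plaur level of library 18, 21.5 CPM, compares with 1.25 to 3.62 CPM in the other 8 PSC libraries. Of the macrophage and leukocyte markers Lyz2 alone was high in it, at 563 CPM against 25.3 to 279 CPM in the other 8, while the other 5 markers summed to 4.36 CPM, below 7 of the other 8 PSC libraries (2.07 to 11.4 CPM). Without library 18 the difference was -1.78 (adjusted p = 0.000166, edgeR). In S100β-GFP+ cells Plaur was 40.3 to 67.5 CPM in libraries 14, 17 and 22 and 148 to 217 CPM in the other 5, the same libraries that were low and high in macrophage markers, with Lyz2 at 855 to 3063 CPM against 4203 to 8852 CPM and the other 5 markers at 218 to 453 CPM against 899 to 1448.5 CPM.

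**Figure D2:**
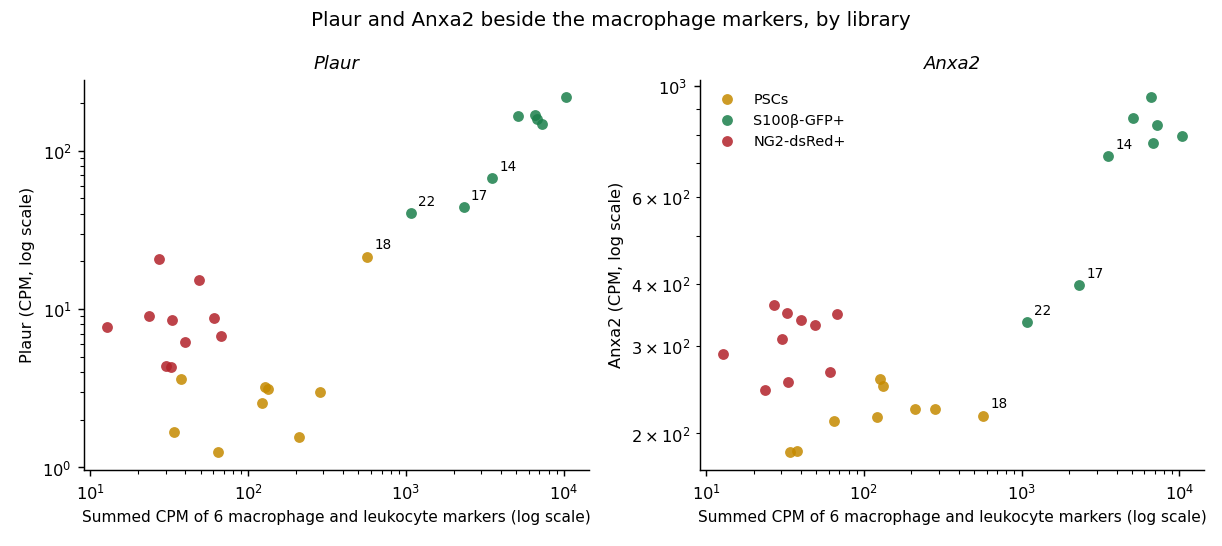
Plaur (left) and Anxa2 (right) in CPM against the summed CPM of 6 macrophage and leukocyte markers, each point 1 library and all axes logarithmic, with S100β-GFP+ libraries 14, 17 and 22 and PSC library 18 numbered. The 3 numbered S100β-GFP+ libraries had Plaur of 40.3 to 67.5 CPM, below the other 5 S100β-GFP+ libraries, and PSC library 18 had the highest Plaur of the PSCs and a marker sum of 568 CPM, of which Lyz2 was 563 CPM.

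Anxa2, the gene for annexin A2 (chromosome 9, 69453620 to 69491795, plus strand), was well expressed everywhere and differed by less than the activators did. PSC libraries had 183 CPM at the lowest, 217 CPM at the median and 257 CPM at the highest. S100β-GFP+ libraries had 336, 783 and 950.0 CPM, and NG2-dsRed+ libraries 244, 320.2 and 362 CPM. Every S100β-GFP+ library lay above every PSC library, whereas NG2-dsRed+ libraries overlapped both. The log2 difference of PSCs was -1.70 ± 0.17 from S100β-GFP+ cells (adjusted p = 1.6e-09, edgeR) and -0.50 ± 0.16 from NG2-dsRed+ cells (adjusted p = 0.0117, edgeR). In S100β-GFP+ libraries 14, 17 and 22 Anxa2 was 336 to 723 CPM, below the 771 to 950.0 CPM of the other 5. The antisense gene Gm16144 overlaps exons of Anxa2, and the use of strand in counting is not stated. It had 139 counts over all libraries, where Anxa2 had 73408.

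Serpine2, the gene for protease nexin-1 (chromosome 1, 79794197 to 79861180, minus strand), ran the other way. Its level in PSC libraries was 291 CPM at the lowest, 397 CPM at the median and 861 CPM at the highest, the last in library 18. NG2-dsRed+ libraries had 95.9, 127 and 158 CPM. S100β-GFP+ libraries had 17.7, 37.7 and 84.9 CPM. The 3 populations did not overlap, with PSCs above NG2-dsRed+ cells and these above S100β-GFP+ cells. PSCs were 9.54-fold higher than S100β-GFP+ cells (log2 difference 3.25 ± 0.26, adjusted p = 2.19e-11, edgeR) and 3.47-fold higher than NG2-dsRed+ cells (1.80 ± 0.23, adjusted p = 1.68e-07, edgeR). Of all genes tested, 5.26% had every PSC library above all S100β-GFP+ libraries and 5.06% above all NG2-dsRed+ libraries. Without library 18 the other 8 PSC libraries ran from 291 to 469.7 CPM, and the log2 differences were 3.11 (adjusted p = 8.68e-12, edgeR) and 1.68 (adjusted p = 8.88e-08, edgeR). The promoter printed above starts from the RefSeq start at 79858665, which lies inside the gene as GENCODE draws it.

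Serpinf1, the gene for PEDF (chromosome 11, 75409769 to 75422701, minus strand), fell in the same direction as the activators. PSC libraries had 16.6 CPM at the lowest, 25.7 CPM at the median and 53.0 CPM at the highest. NG2-dsRed+ libraries had 53.1, 178 and 454 CPM, and S100β-GFP+ libraries 483, 744 and 1242 CPM. The populations did not overlap, although the highest PSC library (18) and the lowest NG2-dsRed+ library (2) nearly met. PSCs were 25.6-fold lower than S100β-GFP+ cells (log2 difference -4.68 ± 0.37, adjusted p = 1.87e-11, edgeR) and 6.56-fold lower than NG2-dsRed+ cells (-2.71 ± 0.34, adjusted p = 1.09e-07, edgeR). PEDF is known as a product of fibroblasts among other cells. The medians of the fibroblast marker sums had the same order of the 3 populations, while the sums of PSC and NG2-dsRed+ libraries overlapped. The medians of Plat, Plau, Plaur and Anxa2 had this order as well. The part of fibroblasts in the Serpinf1 values was not tested.

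Of the 8 genes, Plat, Plau, Plaur, Anxa2 and Serpinf1 had every PSC library below all S100β-GFP+ libraries, which held for 10.3% of all genes tested. Against NG2-dsRed+ cells this held for Plat, Serpinf1 and F2r, where the share of all genes was 8.83%. The S100β-GFP+ and NG2-dsRed+ populations also differed from each other in all 8 genes, 5 of them higher in S100β-GFP+ cells (18.1% of all genes tested) and 3 lower (15.2%, and 33.3% in either direction). The lower genes include F2rl1, which passed the filter through NG2-dsRed+ cells, so that its part in these counts follows from the filter. Without overlap of libraries, Plaur and Serpinf1 were higher in S100β-GFP+ cells (7.15% of all genes) and Serpine2 was lower (4.44%).

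**Figure D3:**
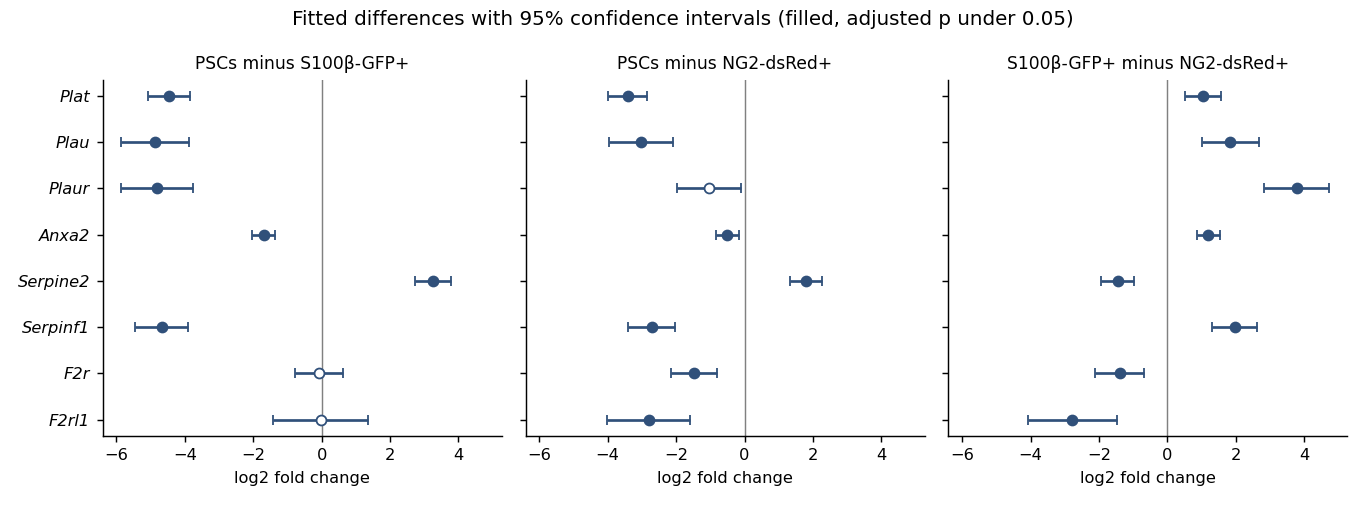
Fitted log2 fold changes of the 8 genes in the 3 comparisons with their 95% confidence intervals, where filled points passed an adjusted p under 0.05. Serpine2 is the only gene to the right of 0 in both comparisons of PSCs, and F2r and F2rl1 lie at -0.08 and -0.02 against S100β-GFP+ cells with open points.

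F2r, the gene for PAR1 (chromosome 13, 95601803 to 95618487, minus strand), had 0.523 CPM at the lowest, 13.2 CPM at the median and 21.2 CPM at the highest in PSC libraries. S100β-GFP+ libraries had 4.23, 12.5 and 27.7 CPM, and NG2-dsRed+ libraries 26.0, 34.9 and 51.2 CPM. PSC and S100β-GFP+ libraries overlapped throughout, and every NG2-dsRed+ library lay above every PSC library. PSCs were 2.78-fold lower than NG2-dsRed+ cells (log2 difference -1.48 ± 0.33, adjusted p = 0.000579, edgeR), and S100β-GFP+ cells were 2.64-fold lower than NG2-dsRed+ cells (-1.40 ± 0.35, adjusted p = 0.00216, edgeR). Between PSCs and S100β-GFP+ cells the difference of -0.08 (95% confidence interval -0.79 to 0.64) did not pass the test (adjusted p = 0.879, edgeR). This value rests on the libraries that stand apart. The lowest PSC library was 18, with 3 counts on F2r, while the other 8 had 10.8 to 21.2 CPM, and S100β-GFP+ libraries 14, 17 and 22 had 15.1 to 27.7 CPM while the other 5 had 4.23 to 13.5 CPM. Without these 4 libraries the F2r difference between the same populations passed the test, with PSCs higher (0.69, adjusted p = 0.0195, edgeR), and without the 3 S100β-GFP+ libraries alone it was not (0.53, adjusted p = 0.29, edgeR). The same 3 libraries had endothelial marker sums of 667 to 2387 CPM, where the other 5 had 37.8 to 119 CPM. Their pericyte and smooth muscle marker sums were 931 to 1522 CPM, where the other 5 had 232 to 804 CPM. Their macrophage and leukocyte sums were the lower ones, as given above. The part of any of these cells in the F2r values was not tested.

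F2rl1, the gene for PAR2 and the neighbour of F2r (chromosome 13, 95511732 to 95525227, minus strand), was rare. PSC libraries had 0 to 1.66 CPM (median 0.301 CPM, 46 counts in all), S100β-GFP+ libraries 0 to 1.78 CPM (median 0.393 CPM, 27 counts in all) and NG2-dsRed+ libraries 1.40 to 10.1 CPM (median 3.19 CPM, 268 counts in all). It was at 0 in 1 PSC library and in 2 S100β-GFP+ libraries, and a count of 0 leaves room for up to 3 counts in a library. F2rl1 passed the filter through the NG2-dsRed+ libraries, 9 of which were over 1.44 CPM, so a difference from them had to appear. Its log2 difference from NG2-dsRed+ cells was -2.80 ± 0.59 in PSCs (adjusted p = 0.000291, edgeR) and -2.78 ± 0.64 in S100β-GFP+ cells (adjusted p = 0.000966, edgeR). PSCs and S100β-GFP+ cells were not told apart at this depth (-0.02, 95% confidence interval -1.41 to 1.37, adjusted p = 0.985, edgeR). Without S100β-GFP+ libraries 14, 17 and 22 the difference of S100β-GFP+ from NG2-dsRed+ cells was -3.73 (adjusted p = 0.000537, edgeR).

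Levels of different genes were compared as CPM per kilobase of exons (GENCODE M21). On this scale PSCs expressed Anxa2 at 58.6 ± 6.65 and Serpine2 at 51.7 ± 20.7 (mean ± SD, n = 9), which differ by less than the spread of Serpine2. Serpinf1 at 12.7 ± 5.75, F2r at 3.85 ± 1.74, Plaur at 1.76 ± 2.44 and Plat at 1.42 ± 0.562 followed, and Plau at 0.218 ± 0.155 and F2rl1 at 0.197 ± 0.194 were last. F2r and Plaur, Plaur and Plat, and Plau and F2rl1 were within a spread of each other. In S100β-GFP+ cells Serpine2 stood at 5.41 ± 2.66 (n = 8), below Serpinf1 at 325 ± 94.3, Anxa2 at 190.1 ± 59.6, Plaur at 48.1 ± 25.2, Plat at 31.0 ± 15.2 and Plau at 6.56 ± 1.51. There Plaur and Plat, and Plau and Serpine2, were within a spread of each other. In NG2-dsRed+ cells Serpinf1 at 83.5 ± 52.9 and Anxa2 at 82.9 ± 11.6 led (n = 10), and Plat at 15.2 ± 4.12 and Serpine2 at 14.9 ± 2.39 were within their spread.

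The ratio of inhibitor to activator transcript per kilobase separated the populations. Serpine2 was 20.4 to 109 times the level of Plat in PSC libraries, with a median of 30.6. In S100β-GFP+ libraries the ratio was 0.0665 to 0.278 (median 0.222), and in NG2-dsRed+ libraries 0.594 to 1.40 (median 1.02). No library of a population overlapped those of another in this ratio. The values follow from those of the genes given above and were not tested separately. Of the summed level per kilobase of the 8 genes, Serpine2 made up 27.9% to 53.2% in a PSC library and 0.307% to 1.53% in an S100β-GFP+ library, where Serpinf1 made up 38.6% to 67.0%.

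**Figure D4:**
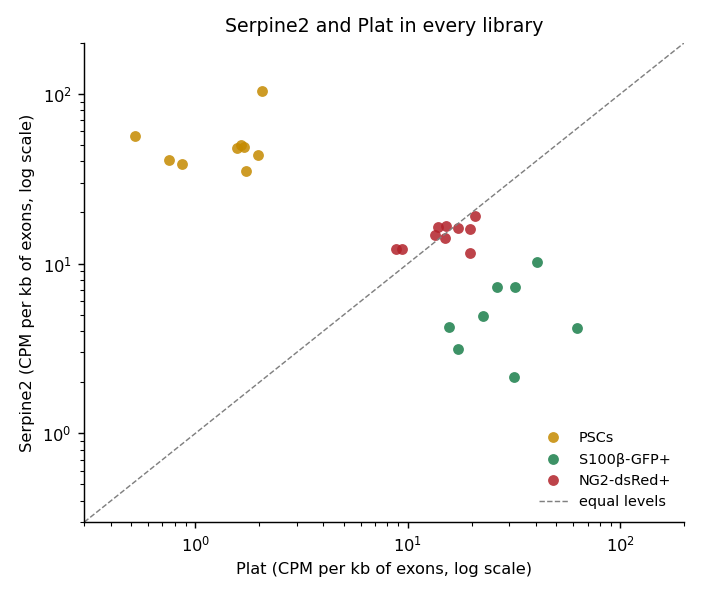
Serpine2 against Plat in CPM per kilobase of exons, each point 1 library on logarithmic axes, with a dashed line where both are equal. PSC libraries lie above the line at ratios of 20.4 to 109, NG2-dsRed+ libraries along it at 0.594 to 1.40 and S100β-GFP+ libraries below it at 0.0665 to 0.278.

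Genes whose log2 CPM followed the 8 genes most closely over the 27 libraries were sought among the 10376 genes with a mean of at least 10 CPM in a population. The libraries share their 3 populations, so these correlations mostly describe the order of the populations. The 3 nearest to Plat were Serping1 (Pearson's r = 0.978), Cd34 (0.971) and Gstm2 (0.971), and those nearest to Serpinf1 were Rnase4 (0.982), Adamts2 (0.979) and Col3a1 (0.975). Those nearest to Plau were Stxbp6 (0.938), Ifi204 (0.931) and Mfap5 (0.929), of which Mfap5 is 1 of the fibroblast markers. Those nearest to Plaur were Ftl1 (0.962), Gpx1 (0.957) and Nfil3 (0.953). Those nearest to Anxa2 were Pilra (0.954), Cyth4 (0.951) and Irf5 (0.949), which averaged 46.4 to 71.4 CPM in S100β-GFP+ cells and at most 2.21 CPM in the other populations. Serpine2 was followed by Mmp17 (0.964), which averaged 98.9 CPM in PSCs, 4.65 CPM in S100β-GFP+ cells and 15.9 CPM in NG2-dsRed+ cells, and by Mvb12b (0.951) and 2010111I01Rik (0.948). The receptors had Zbtb10 (0.937), Sema6d (0.932) and Rnf144a (0.928) nearest to F2r, and Cabp1 (0.862), Tcf4 (0.854) and Casq2 (0.852) nearest to F2rl1.

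The rest of the plasminogen system was read from a list of 15 genes, of which 9 were tested. PSCs were lower than S100β-GFP+ cells in 6 of them, and 3 did not pass the test, with a median log2 difference of -1.21. Against NG2-dsRed+ cells 4 were lower and 1 higher, with a median of -0.46. Of all genes tested, 24.1% were called lower and 22.9% higher in the first comparison and 23.1% lower and 20.9% higher in the second, which holds for the lists that follow as well. Serpinb2 passed the filter through S100β-GFP+ cells, with 1 PSC library over its minimum, and of the other 8 genes 5 were lower in the first comparison. Plasminogen itself (Plg) did not pass the filter, with 17 counts over all PSC libraries, 14 over the S100β-GFP+ and 2 over the NG2-dsRed+ libraries. Serpini1, the gene for neuroserpin, an inhibitor of tPA, was a gene of NG2-dsRed+ cells at 48.0 ± 10.2 CPM, with 3.75 ± 2.31 CPM in PSCs and 2.92 ± 2.80 CPM in S100β-GFP+ cells. Vtn, the gene for vitronectin, which binds uPAR, averaged 463 ± 94.3 CPM in NG2-dsRed+ cells, 33.1 ± 18.8 CPM in S100β-GFP+ cells and 13.4 ± 3.24 CPM in PSCs, and its levels in NG2-dsRed+ libraries lay above all others. Serpinb2, the gene for PAI-2, was unevenly present in S100β-GFP+ cells (20.8 ± 27.2 CPM) and averaged 0.392 ± 1.18 CPM in PSCs, and its exons overlap those of Serpinb10 on the same strand. S100a10, whose product pairs with annexin A2, was lower, as Anxa2 was, against S100β-GFP+ cells (223 ± 81.4 CPM against 516 ± 154 CPM, log2 difference -1.21 ± 0.23, adjusted p = 5.93e-05, edgeR) but did not pass the test against NG2-dsRed+ cells (208 ± 68.2 CPM, adjusted p = 0.725, edgeR).

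The thrombin system was read from a list of 16 genes, of which 10 were tested. PSCs were lower than S100β-GFP+ cells in 8 and higher in 1, with a median log2 difference of -3.13, and lower than NG2-dsRed+ cells in 6 and higher in 3, with a median of -2.03. F5 and F10 passed the filter through S100β-GFP+ cells and F2rl3 through NG2-dsRed+ cells, so that PSCs had to be lower than the population concerned. Of the other 7 genes 5 were lower and 1 higher in the first comparison (median -2.17), and 4 were lower and 3 higher in the second (median -1.38). F2rl2 is 1 of these 7 and also passed the filter only with the S100β-GFP+ libraries, with 5 PSC libraries over its minimum. Its part in the first comparison, where it is the median, thus follows in part from the filter. Without S100β-GFP+ libraries 14, 17 and 22, 11 genes of the list were tested, 6 of them lower and 1 higher in the first comparison. When PSC library 18 was left out as well, 8 of the 11 were lower and 1 higher. Prothrombin (F2) did not pass the filter, with 13 counts over the PSC libraries, 12 over the S100β-GFP+ and 19 over the NG2-dsRed+ libraries. The genes for the surface proteins that turn thrombin towards the anticoagulant protein C were low in PSCs. Thbd, the gene for thrombomodulin, averaged 21.0 ± 8.56 CPM in PSCs, 215 ± 46.6 CPM in S100β-GFP+ cells and 152 ± 33.7 CPM in NG2-dsRed+ cells. Procr, the gene for the endothelial protein C receptor, averaged 4.04 ± 2.14, 106 ± 46.3 and 69.6 ± 13.3 CPM, and its log2 differences were -4.73 ± 0.33 and -4.12 ± 0.32. Tfpi2, the gene for a Kunitz-type protease inhibitor, averaged 1.09 ± 0.595, 23.9 ± 7.28 and 9.36 ± 7.46 CPM. For all 3 genes the highest PSC library lay below the lowest library of both other populations. Pros1, the gene for protein S, a cofactor of protein C and a ligand of TAM receptors, went the other way, with 180.2 ± 72.2 CPM in PSCs, 102 ± 12.9 CPM in S100β-GFP+ cells and 81.9 ± 11.5 CPM in NG2-dsRed+ cells (0.81 ± 0.17 and 1.14 ± 0.16, adjusted p = 0.000276 and 1.18e-06, edgeR). The highest Pros1 of the PSCs, 347 CPM, was in library 18.

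Of the other protease-activated receptors, F2rl2, the gene for PAR3, had an order of its own. It averaged 10.9 ± 6.66 CPM in S100β-GFP+ cells, 2.36 ± 2.21 CPM in PSCs and 0.159 ± 0.203 CPM in NG2-dsRed+ cells, where 11 counts fell on it in all 10 libraries. PSCs were lower than S100β-GFP+ cells (-2.17 ± 0.57, adjusted p = 0.00244, edgeR) and higher than NG2-dsRed+ cells (3.75 ± 0.69, adjusted p = 4.74e-05, edgeR). F2rl2 passed the filter through S100β-GFP+ cells, with 8 libraries over its minimum, where 5 PSC and 0 NG2-dsRed+ libraries were. The first of these differences therefore follows in part from the filter. F2rl3, the gene for PAR4, was low throughout, at 0.139 ± 0.151 CPM in PSCs, 1.11 ± 1.35 CPM in S100β-GFP+ cells and 2.31 ± 1.15 CPM in NG2-dsRed+ cells. The coagulation factor genes F5 and F10 were rare outside S100β-GFP+ cells, which averaged 8.34 ± 8.95 and 10.7 ± 9.49 CPM, where PSCs averaged 0.131 ± 0.314 and 0.397 ± 0.648 CPM. The markers of macrophages and leukocytes given above were likewise high in S100β-GFP+ cells.

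Of 12 other serpins 8 were tested. PSCs were lower than S100β-GFP+ cells in 7, and 1 did not pass the test (median log2 difference -1.99), and lower than NG2-dsRed+ cells in 4 and higher in 2 (median -1.12). Serpinb6b was over the filter's minimum in 1 PSC library only, and of the other 7 genes 6 were lower in the first comparison. Without S100β-GFP+ libraries 14, 17 and 22, 6 of the 8 genes tested were lower in it. Serping1, the gene for the C1 inhibitor, averaged 45.0 ± 18.6 CPM in PSCs, 715 ± 269 CPM in S100β-GFP+ cells and 372 ± 52.7 CPM in NG2-dsRed+ cells. Serpinb1a, the gene for an intracellular inhibitor of neutrophil elastase, averaged 2.62 ± 2.37, 26.6 ± 7.71 and 14.3 ± 3.74 CPM. For both genes no PSC library reached the range of the other populations. Serpina3n and Serpinb8 were intermediate in PSCs, with 8.33 ± 8.60 and 4.71 ± 2.82 CPM between 24.9 ± 13.7 and 17.5 ± 5.52 CPM in S100β-GFP+ cells and 1.95 ± 2.78 and 2.07 ± 0.743 CPM in NG2-dsRed+ cells. Serpinh1, the gene for the collagen chaperone HSP47, had 639 ± 428 CPM in PSCs, 732 ± 277 CPM in S100β-GFP+ cells and 557 ± 115 CPM in NG2-dsRed+ cells and did not pass the test in PSCs against either (adjusted p = 0.602 and 0.591, edgeR).

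Of 5 genes proposed as PEDF receptors, all tested, 4 were lower in PSCs than in S100β-GFP+ cells (median log2 difference -0.76) and 4 lower than in NG2-dsRed+ cells (median -1.28). Plxdc1, the gene for a plexin domain protein of blood vessels, averaged 122 ± 30.8 CPM in NG2-dsRed+ cells, 6.85 ± 4.23 CPM in S100β-GFP+ cells and 2.48 ± 2.39 CPM in PSCs. Plxdc2 averaged 71.3 ± 12.2 CPM in PSCs, 239 ± 54.7 CPM in S100β-GFP+ cells and 175 ± 42.2 CPM in NG2-dsRed+ cells, and its PSC libraries all lay below those of the other populations. Without S100β-GFP+ libraries 14, 17 and 22, 2 of these 5 genes were called lower in PSCs than in S100β-GFP+ cells.

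**Figure D5:**
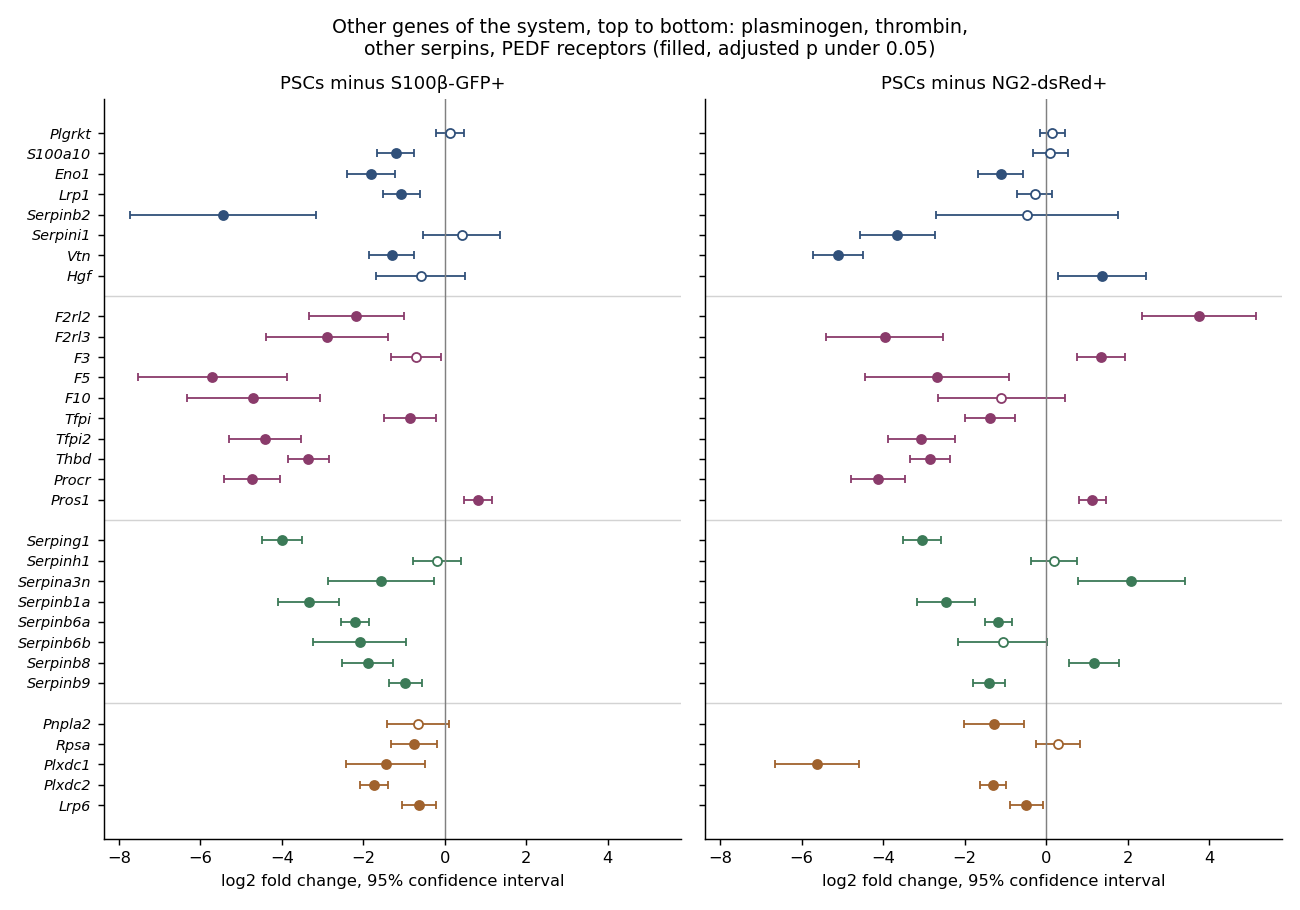
Fitted log2 fold changes with 95% confidence intervals of the tested genes of the plasminogen, thrombin, other serpin and PEDF receptor lists, 1 plasminogen gene aside, PSCs minus S100β-GFP+ cells on the left and PSCs minus NG2-dsRed+ cells on the right, where filled points passed an adjusted p under 0.05. On the left Pros1 is the only filled point above 0, and on the right Vtn, Procr and Plxdc1 lie below -4.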

How the data were processed

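RNA of sorted cells was measured by RNA-seq after amplification with a SMART-Seq v4 kit. Per the study's methods, reads were cleaned with ea-utils and Btrim, mapped with HISAT2 and assigned to genes by HTSeq, and the deposited values are whole-number counts without normalization. The submitters' processing notes name the build GRCm38. The sources used here give neither tool versions nor whether counting was stranded, which makes counts of overlapping genes uncertain. The column names carry library numbers, by which 27 of the 36 libraries in the labels were found, and the other 9 were not analysed here. Over 109 pairs of libraries of one population none were identical, and each differed by more than sampling noise (chi-square statistic per degree of freedom 8.10 or more). Symbols, positions and exon lengths came from GENCODE M21, which has 99.72% of the identifiers.

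The 3 populations were fitted together, with no covariate, by edgeR's quasi-likelihood test (edgeR 4.0.16 in R 4.3.3) after TMM and filterByExpr (minimum count 10, 15330 genes kept), with Benjamini-Hochberg adjustment over all genes at 0.05. A standard error is the size of the log2 fold change over the root of F. Correlations used log2 CPM with a prior count of 2. Total counts were between 5221655 and 9592875 per library, and ranges and a floor of 3 counts per library cover counting error only, as PCR copies cannot be told apart. The alternatives were DESeq2 1.42.0 (Wald test, the test of the study), its size factors in edgeR, no filter, a mean count of at least 5 in 1 population as filter, only the compared populations, limma-voom (limma 3.58.1) with sample weights, a prior count of 2, and omission of each library singly. After the data had been seen, fits were added with a covariate for the share of counts that Lars2, Gm23935 and Gm15564 take together, and without S100β-GFP+ libraries 14, 17 and 22, alone or with PSC library 18.

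The 8 genes and the lists were chosen with earlier results of these data known. The text names the 8 genes, for each the 3 genes of highest correlation, and of each list at most 4 genes a comparison by size of change among those past the threshold. Plg, F2, S100a10, Thbd, Pros1, Tfpi2, Serpinb8 and Serpinh1 were named after their values were seen. The values of 1 gene of the plasminogen list are not reported here. Markers of megakaryocytes and platelets, satellite cells, muscle fibres, tenocytes, melanocytes and erythroid cells were summed per library as well. Promoter sequences are from RefSeq (GRCm38.p6).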

Additional observations from a re-analysis of the deposited data

Results flagged for a closer look

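In 24 groups of libraries, the 8 genes in each of 3 populations, the gap of the highest or lowest library to its neighbour was set against the whole range of the group by Dixon's test. A gap past the 95% critical value was found in 5 groups. The rate of 1 in 20 by chance holds for normally distributed values in independent groups. These values were CPM without a log, and the groups share their libraries, so the count of 5 cannot be set against that rate. PSC library 18 was the one apart in 3 of these: its Plaur of 21.5 CPM left a gap of 0.883 of the range, its Serpine2 of 861 CPM a gap of 0.686, and its F2r of 0.523 CPM, the lowest, a gap of 0.496. NG2-dsRed+ library 35 had 15.1 CPM of Plau (gap 0.574). S100β-GFP+ library 14 had 1242 CPM of Serpinf1 (gap 0.536). Library 18 also had the highest skeletal muscle fibre marker sum of the PSCs, 1306 CPM, where the others had 126 to 648 CPM, and the part of these markers in its values was not tested.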

How the results depend on the processing

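Of the 24 tests of the 8 genes over the 3 comparisons, 21 passed the threshold, and in all 777 refits of these under 37 alternatives each kept its direction and its call. Not all of these refits could change a call, as a prior count of 2 leaves the p-values of the main fit. Omissions of a library from the population not compared act only through the shared fit. The other 3 of the 24 tests moved. Plaur in PSCs against NG2-dsRed+ cells passed the threshold with limma-voom (-1.73, adjusted p = 0.00828), without S100β-GFP+ libraries 14, 17 and 22 (-1.05, adjusted p = 0.0391, edgeR) and without these and PSC library 18 (-1.82, adjusted p = 6.42e-06, edgeR). Leaving out 1 library gave -1.78 to -0.78 (adjusted p 0.000166 to 0.158, edgeR), and of these refits only that without PSC library 18 changed the call. For F2r in PSCs against S100β-GFP+ cells the sign turned with limma-voom (0.44, adjusted p = 0.202), without libraries 14, 17 and 22 (0.53) and without these and library 18 (0.69, adjusted p = 0.0195, edgeR), and leaving out 1 library gave -0.22 to 0.15. For F2rl1 in the same comparison it turned without the filter (0.051), with a mean count of at least 5 (0.0071), with limma-voom (0.80), without libraries 14, 17 and 22 (0.95) and without these and library 18 (1.09), and leaving out 1 library gave -0.40 to 0.52, none of them past the threshold. Without a filter on low counts 16556 genes passed between PSCs and S100β-GFP+ cells, 3907 of them higher in PSCs, where 7198 passed with it, 3511 of them higher. Between S100β-GFP+ and NG2-dsRed+ cells 10586 passed in place of 5099. The cause was not tested. Leaving out 1 library kept the counts of genes at 6825 to 7918, 6315 to 7412 and 4617 to 5940. Of the thrombin list, 14 genes passed without a filter against S100β-GFP+ cells, where 9 did with it. No paired analysis was possible because every library carries a number of its own, so that no number is shared between populations. Other scalings moved the median of all genes by at most 0.07 on the log2 scale. Depth limits Plau and F2rl1 in PSCs, with 41 and 46 counts over 9 libraries.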

Other observations

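The marker lists that the comparisons above did not use gave these sums per library. The 5 megakaryocyte and platelet markers, cells known to carry PAR genes, summed to 1.61 to 8.05 CPM in PSCs, 23.2 to 75.2 CPM in S100β-GFP+ cells and 5.44 to 21.7 CPM in NG2-dsRed+ cells. The 3 erythroid markers summed to 16895 to 103061 CPM in S100β-GFP+ libraries 14, 17 and 22 and to 19.5 to 18952.5 CPM in the other 5. The 5 tenocyte and chondrocyte markers summed to 4.54 to 509 CPM in PSCs, 78.9 to 1205 CPM in S100β-GFP+ cells and 37.6 to 113 CPM in NG2-dsRed+ cells. The 5 satellite cell and myoblast markers stayed at or below 40.6 CPM in every library, and the 3 melanocyte markers at or below 3.84 CPM.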
